A study of Mus musculus with 8 samples.

Results

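Glycolysis splits glucose into pyruvate in the cytosol and yields ATP and NADH on the way. The genes described here are 10 genes that encode its enzymes, taken by name and in the order of the pathway: Hk2, Gpi1, Pfkl, Pfkp, Aldoa, Tpi1, Gapdh, Pgam1, Eno1 and Pkm. All 10 were found among the 21887 protein-coding genes of the RefSeq table used. The data are ChIP-seq peaks of H3K36me3, histone H3 carrying trimethylated lysine 36, in cultured mouse embryonic stem cells. This mark is laid down by SETD2, which travels with elongating RNA polymerase II, so it is known to cover the bodies of transcribed genes, mostly downstream of the promoter. Naive embryonic stem cells are known to run glycolysis beside mitochondrial respiration.

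The cells were feeder-free, carried a doxycycline-inducible knockdown of Setd2 and grew as spheres in serum-free 2i medium with the MEK inhibitor PD0325901 (1 µM), the GSK3 inhibitor CHIR99021 (3 µM) and LIF (1000 U/ml). Control cells were labelled Dox - with genotype control, and knockdown cells Dox + with genotype Setd2 knockdown, after 4 days of doxycycline at 1 µg/ml. The 8 libraries were H3K36me3 ChIP and input in each condition, with 2 replicates each, and the labels do not say whether the replicates were separate cultures. The authors called peaks on the merged replicates, so each condition gives 1 peak list and no replicate spread, and no test between conditions was possible. Only the knockdown cells received doxycycline, so its own action and that of the knockdown cannot be told apart. The header of the control list names it shCont, and whether control cells carried another hairpin was not given in the sources used here.

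After removal of duplicates the caller used 36244210 ChIP tags (mapped reads) in control and 29416169 in knockdown, called the kept tags here, and listed 30634 and 3040 peaks. Setd2 itself had 11 control peaks over 40.1% of its span and no knockdown peak, which describes its chromatin and measures neither its transcript nor its protein. Of 14 naive embryonic stem cell markers 13 had a control peak midpoint, and the other one, Klf2, lay under a control peak over 95.1% of its span. Of 11 fibroblast markers and of 10 liver, blood and muscle markers none touched a control peak, and of 9 primitive endoderm markers only the laminin gene Lama1 did.

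In control cells H3K36me3 peaks lay on all 10 glycolysis genes, and after Setd2 knockdown on Eno1 and Pkm only. The knockdown count depended on the peak threshold: with an FDR of 1% or less it was 0, and with a caller score of 100 or more it was 1 (Pkm). The FDR cut also removed the higher-scoring Pkm peak, which had a score of 261.72 and an FDR of 4.35%. With only as many top-scoring control peaks as the knockdown list holds (3040), 4 of the 10 had a control peak and 1 (Pkm) had both. Shares of all protein-coding genes under these alternatives are not given here, so these counts stand without a background. A gene was counted when the midpoint of at least 1 peak fell inside its span. By this rule, control peaks lay on 41.2% of all protein-coding genes and knockdown peaks on 4.95%. Among the 14388 protein-coding genes in the length range of the 10 (3.57 to 69.2 kb) these shares were 48.5% and 4.97%. Of the genes with a control peak 10.6% also had a knockdown peak, or 9.23% in that length range. The covered share is the percent of the gene span that lies under peaks. Its median over the 10 genes was 75.5% in control and 0 in knockdown, against 4.15% and 0 over the genes of the same length range and 0 and 0 over all protein-coding genes. Over genes with a control peak, as all 10 have, the control median was 45.6% in the length range and 37.9% in all. At least 50% of the span was covered in control in 9 of the 10, compared with 22.9% of the genes in the length range and 17.0% of all. In knockdown, Eno1 and Pkm were covered over at least 10%, as were 1.71% of all protein-coding genes and 8.08% of those in the length range that were covered over at least 50% in control. Summed over the 10 genes, 150 kb of 226 kb lay under control peaks and 7.92 kb under knockdown peaks.

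**Figure D1:**
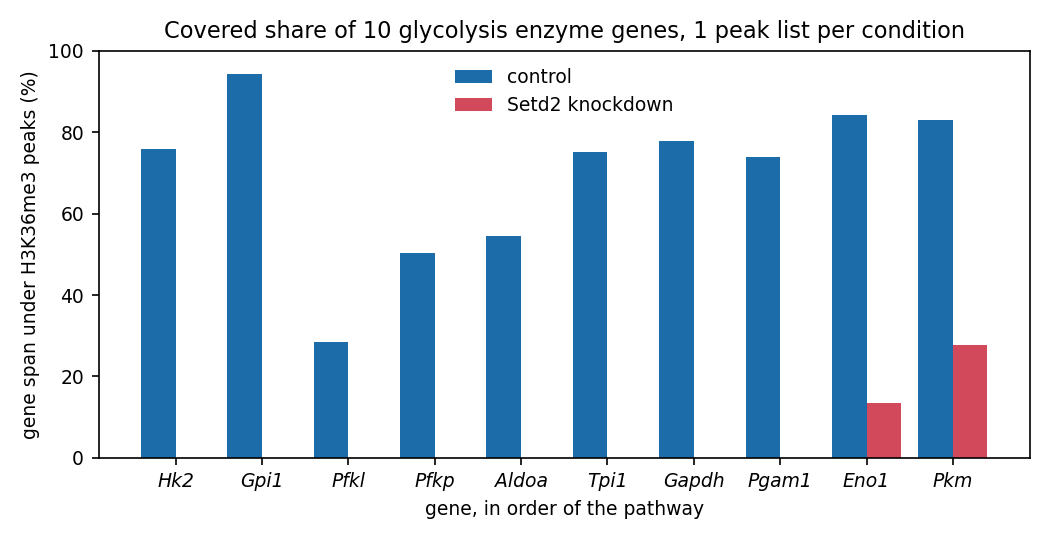
Percent of each gene span under H3K36me3 peaks (vertical axis) for the 10 genes in pathway order, with control in blue and Setd2 knockdown in red, 1 merged peak list each and therefore no error bars. Control bars reach from 28.4% (Pfkl) to 94.4% (Gpi1), and red bars stand only at Eno1 (13.4%) and Pkm (27.6%).

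The start regions of these genes carried no peak, and 4 of them are shown because the marked stretches begin downstream of them. RefSeq (GRCm38.p6, the build of the mm10 peak coordinates) gives 15 start sites for the 10 genes. None of the 15 windows from 250 bases before to 50 bases after a start touched a control or knockdown peak. Over all 32851 such windows 2.27% touched a control peak, and over those of protein-coding genes with a control peak 2.68%, so empty windows are the common state. Shown are the 250 bases before the first start of Pkm and Eno1, which had peaks in both lists, and of Gpi1 and Hk2, which had control peaks over large parts of their spans and no knockdown peak. Letters run 5′ to 3′ on the gene's strand, and capitals mark CG dinucleotides, the sites of DNA methylation.
Pkm (chr9:59656326-59656575, plus strand): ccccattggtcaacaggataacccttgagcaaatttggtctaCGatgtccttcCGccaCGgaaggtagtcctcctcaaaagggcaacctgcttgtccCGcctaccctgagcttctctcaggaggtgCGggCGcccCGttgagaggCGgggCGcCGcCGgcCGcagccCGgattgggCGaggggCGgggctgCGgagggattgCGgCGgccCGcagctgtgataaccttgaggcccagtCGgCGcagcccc
Eno1 (chr4:150236458-150236707, plus strand): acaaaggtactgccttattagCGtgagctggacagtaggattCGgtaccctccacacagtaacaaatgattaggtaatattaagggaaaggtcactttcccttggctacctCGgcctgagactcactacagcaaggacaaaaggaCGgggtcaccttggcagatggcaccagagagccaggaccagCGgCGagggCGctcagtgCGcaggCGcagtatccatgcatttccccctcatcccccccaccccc
Gpi1 (chr7:34230337-34230586, minus strand): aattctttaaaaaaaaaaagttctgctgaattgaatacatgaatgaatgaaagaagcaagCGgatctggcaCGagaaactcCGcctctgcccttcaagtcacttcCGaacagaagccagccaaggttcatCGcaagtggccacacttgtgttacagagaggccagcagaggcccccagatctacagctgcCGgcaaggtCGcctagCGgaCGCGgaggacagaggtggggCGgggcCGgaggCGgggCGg
Hk2 (chr6:82774455-82774704, minus strand): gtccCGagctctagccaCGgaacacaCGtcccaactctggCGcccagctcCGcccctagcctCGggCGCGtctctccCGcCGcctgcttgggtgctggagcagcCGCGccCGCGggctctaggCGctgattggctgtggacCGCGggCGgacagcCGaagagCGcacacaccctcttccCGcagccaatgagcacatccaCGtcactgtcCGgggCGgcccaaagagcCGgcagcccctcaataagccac
The Hk2 stretch holds 25 CG dinucleotides, that of Pkm 21, that of Gpi1 14 and that of Eno1 9. Eno1 has further starts downstream of the shown one, whose full windows hold 24 and 25. Over the 15 full windows the median was 23 CG dinucleotides, against 21 for protein-coding genes with a control peak and 7 for all windows. The first Aldoa window, at a start upstream of its other starts, held 0. The sequences ACGTG and GCGTG, core letters of the elements bound by hypoxia-inducible factors, were searched on both strands. ACGTG was found in 6 of the 15 windows (40.0%, against 19.6% of all windows) and GCGTG in 7 (46.7%, against 32.4%). Windows of protein-coding genes with a control peak held ACGTG in 26.1% and GCGTG in 51.9%. The E-box CACGTG, which contains ACGTG and is known to be bound by Myc proteins, was found in 0 of the 15 and in 7.15% of all windows, or 10.4% of those of protein-coding genes with a control peak. Windows of neighbouring starts overlap and share their letters, and a match is only a description of the sequence.

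The preparatory steps of glycolysis trap and phosphorylate glucose. Hk2 (chromosome 6, 82725025 to 82774454, minus strand) encodes hexokinase 2, which makes glucose 6-phosphate. It carried 7 control peaks over 75.9% of its 49.4 kb and no knockdown peak. Tag density under its control peaks was lower in the first peak, with 48.6 tags per kb, than in the sixth, with 65.5, counted from the 5′ end. The third peak was the sparsest, with 44.2. The last peak ran 1403 bp past the 3′ end of the gene.

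Gpi1 (chromosome 7, 34201327 to 34230336, minus strand) encodes glucose-6-phosphate isomerase, which converts glucose 6-phosphate to fructose 6-phosphate. It was the most covered of the 10, with 1 unbroken control peak of 28066 bp over 94.4% of the span. This peak held 1934 tags, began 1618 bp after the start and ended 674 bp past the 3′ end. No knockdown peak touched the gene.

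The next step is catalysed by phosphofructokinase, the main control point of the pathway, whose liver and platelet type subunits are encoded by Pfkl and Pfkp. These were the 2 least covered genes of the 10. Pfkl (chromosome 10, 77986947 to 78009807, minus strand) had 1 control peak of 6483 bp over 28.4% of its span. The peak began 5579 bp after the start and left the last 10799 bp of the gene without a peak. Pfkp (chromosome 13, 6579874 to 6649060, minus strand), the longest of the 10 genes at 69.2 kb, had 5 control peaks over 50.3% of its span. The 2 longest measured 13392 and 14891 bp, and the last 11281 bp of the gene were uncovered. Three-prime parts without a control peak of this size were seen in no other of the 10. The first 3 Pfkp peaks also lie over the non-coding gene Gm35730, which shares 19061 bp with Pfkp, and the tags of overlapping genes were not separated. Neither gene had a knockdown peak. Peaks covered 37.0% of Pfkm, which encodes the muscle type subunit, in the control list and none of it in the knockdown list. Pfkm is named here after its value was seen.

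Aldolase and triosephosphate isomerase split the sugar and interconvert the resulting triose phosphates. Aldoa (chromosome 7, 126795234 to 126800994, minus strand), the aldolase A gene, had 1 control peak over 54.6% of its span, which held 74.6 tags per kb and ran 1557 bp past the 3′ end. The peak began 2067 bp after the first of its 3 starts and 798 bp after the last. Tpi1 (chromosome 6, 124810586 to 124814158, minus strand), the triosephosphate isomerase gene and with 3.57 kb the shortest of the 10, had 1 control peak over 75.2%. That peak began 886 bp after the start and ran 963 bp past the 3′ end into Spsb2. A separate control peak stood 496 bp upstream of the Tpi1 start, toward the neighbouring gene Usp5. Aldoa and Tpi1 had no knockdown peak.

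The later steps recover ATP and end in pyruvate. Gapdh (chromosome 6, 125161852 to 125166467, minus strand) encodes glyceraldehyde-3-phosphate dehydrogenase, which makes the NADH of the pathway. Its control peak covered 77.8% of the span and began 68 bp after the start given in the promoter table, closer than in any other of the 10. The gene span in the gene table reaches further upstream than that start. Pgam1 (chromosome 19, 41911871 to 41918665, plus strand), the phosphoglycerate mutase gene, was covered over 73.8%. A second control peak touched its last 293 bp and continued 6286 bp beyond, over Exosc1. Neither gene had a knockdown peak.

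Eno1 (chromosome 4, 150236708 to 150248879, plus strand) encodes enolase, which forms phosphoenolpyruvate. In control, 2 peaks covered 84.1% of its 12.2 kb span. In knockdown 1 peak of 1636 bp covered 13.4%. The knockdown peak held 63 tags, lay inside the longer control peak and had its summit 6669 bp after the start, at 54.8% of the gene length. The caller score, as the authors deposited it, is higher for a smaller p-value of the peak. It was 62.09 here, rank 2242 of the 3040 knockdown peaks.

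Pkm (chromosome 9, 59656576 to 59679372, plus strand) encodes pyruvate kinase M, which makes pyruvate and ATP in the last step. In control, 1 peak of 18906 bp with 1401 tags covered 82.9% of its 22.8 kb. In knockdown 2 peaks of 2105 and 4179 bp, with 71 and 166 tags, covered 27.6%. Both lay inside the control peak, with summits at 41.4% and 59.6% of the gene length. Their caller scores of 102.66 and 261.72 ranked 849 and 92 in the knockdown list. The non-coding gene LOC115487221 lies inside Pkm under the control peak and under neither knockdown peak.

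**Figure D2:**
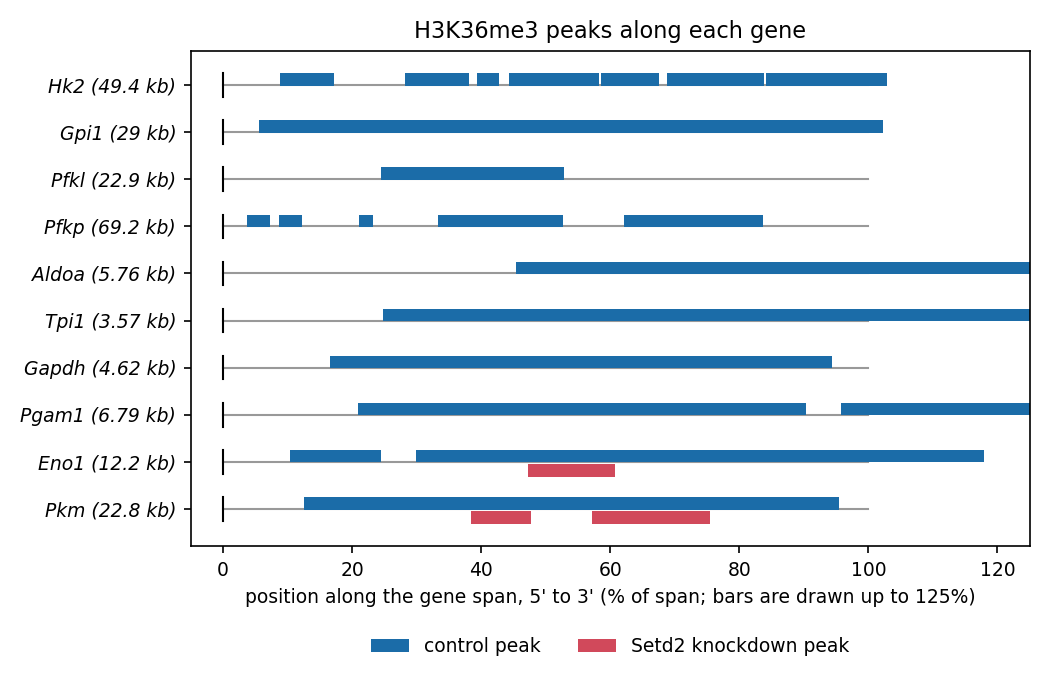
Peaks along each gene, drawn from the 5′ to the 3′ end as percent of the gene span (horizontal axis; bars that run far past the 3′ end are clipped at the right edge), with control peaks in blue and knockdown peaks in red; the black tick is the 5′ end of the span. Blue bars begin to the right of every tick, those of Pfkl and Pfkp stop well before the 3′ end, and the 3 red bars lie in the interior of Eno1 and Pkm.

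Along the genes, the control peaks covered the interior and the 3′ side more than the 5′ end. The 5′ edge of the first control peak lay 68 bp (Gapdh) to 5579 bp (Pfkl) after the first start, with a median of 1842.5 bp. Over 5602 protein-coding genes of the same length range with a control peak the median was 3498 bp (quartiles 1697.25 and 8711 bp), and the start itself lay under a peak in 72 of 5689 genes (1.27%). When each span was cut into 10 equal bins, the mean covered share of the 10 genes was 10.6% in the first bin, 40.0% in the second and 58.4% in the third. It reached 93.2% in the fifth bin, was 90.0% in the eighth and 64.5% in the last. Over 11507 protein-coding genes of the length range with a known strand, it was 4.39% in the first bin, 25.9% in the fifth and 32.4% in the last. Over the 5689 of these with a control peak, as all 10 glycolysis genes have, it was 8.20%, 51.0% and 60.6%, so the glycolysis genes lay close to them in the first and last bins and higher in the fifth. In 6 of the 10 genes a control peak that touched the gene ran past the annotated 3′ end, by 674 bp (Gpi1) to 6286 bp (Pgam1). The Pgam1 value comes from the peak over Exosc1, whose midpoint lies outside Pgam1. The peak with its midpoint in Pgam1 ended 655 bp before the 3′ end. In the other 4 (Pfkl, Pfkp, Gapdh and Pkm) the control peaks stopped short of the 3′ end, by 262 bp in Gapdh and 1029 bp in Pkm. The knockdown peaks of Eno1 and Pkm fell in the fourth to eighth bins only, where the mean over the 10 genes was highest in the sixth, at 12.9%. In the background genes the knockdown mean was highest in the eighth bin, at 1.23%. Only 586 of the 11507 had a knockdown peak, and over these the mean was also highest in the eighth bin, at 24.0%.

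**Figure D3:**
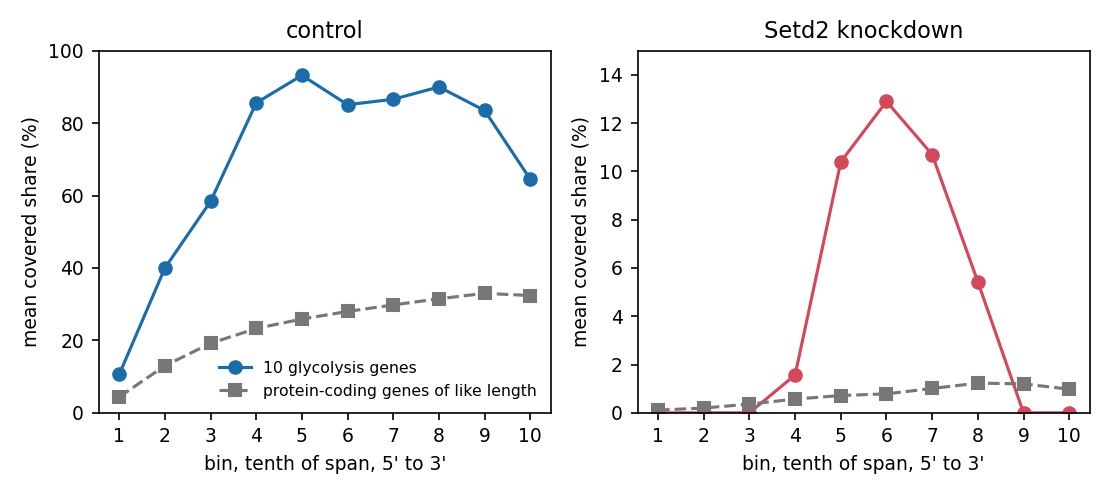
Mean covered share (vertical axis, percent) in 10 equal bins from the 5′ to the 3′ end of the gene span, for the 10 glycolysis genes (solid) and for 11507 protein-coding genes of the same length range (dashed), in control (left, axis to 100%) and knockdown (right, axis to 15%). The control line climbs from 10.6% to 93.2% in the fifth bin and ends at 64.5%; the knockdown line rests on Eno1 and Pkm alone.

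Tag density adds the height of the marked stretches to their extent. It is given here as tags per kb under peaks, with the tags of a peak shared out in proportion to the length inside the gene. A Poisson 95% interval was computed on this shared-out count, rounded to a whole number. The interval covers counting error only and takes no account of uneven tags within a peak. The densest control signal was over Aldoa, with 74.6 tags per kb (65.4 to 84.9), and Pkm, with 74.1 (70.3 to 78.1). Gpi1 had 68.9 (65.9 to 72.1) and Eno1 67.9 (62.9 to 73.1). These 4 lay in the highest decile of the 9016 protein-coding genes with a control peak. Gapdh followed with 62.9 (55.0 to 71.7), Hk2 with 58.6 (56.2 to 61.1), Pfkp with 57.5 (55.0 to 60.1) and Pgam1 with 56.8 (50.5 to 63.9). The lowest were Tpi1 with 54.2 (45.9 to 63.9) and Pfkl with 48.1 (42.9 to 53.8). In this order the intervals of each gene and the next overlapped in 9 of 9 pairs. Overlapping intervals do not show that neighbours are alike, and differences between neighbours were not tested. The intervals at the ends of the order, of Aldoa and Pfkl, did not overlap. The median over the 10 genes was 60.8, compared with 49.9 over all protein-coding genes with a control peak and 51.5 in the length range.

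Knockdown peaks were found more often on genes with dense control signal, across all marked genes. In the highest decile of control density 37.0% (33.9 to 40.3, exact Clopper-Pearson 95% interval) of 902 genes also had a knockdown peak, compared with 15.3% in the ninth decile, 10.9% in the eighth and 5.10% in the lowest. Of the 4 glycolysis genes in the highest decile 2 had a knockdown peak, Eno1 and Pkm, and Aldoa and Gpi1 had none. The other 6 lay in the fifth to ninth deciles and had none. With so few genes, 2 of 4 was not read as different from 37.0%. Eno1 and Pkm were 2 of the 9 glycolysis genes covered over at least 50% in control, and among all such genes in the length range 13.3% had a knockdown peak.

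**Figure D4:**
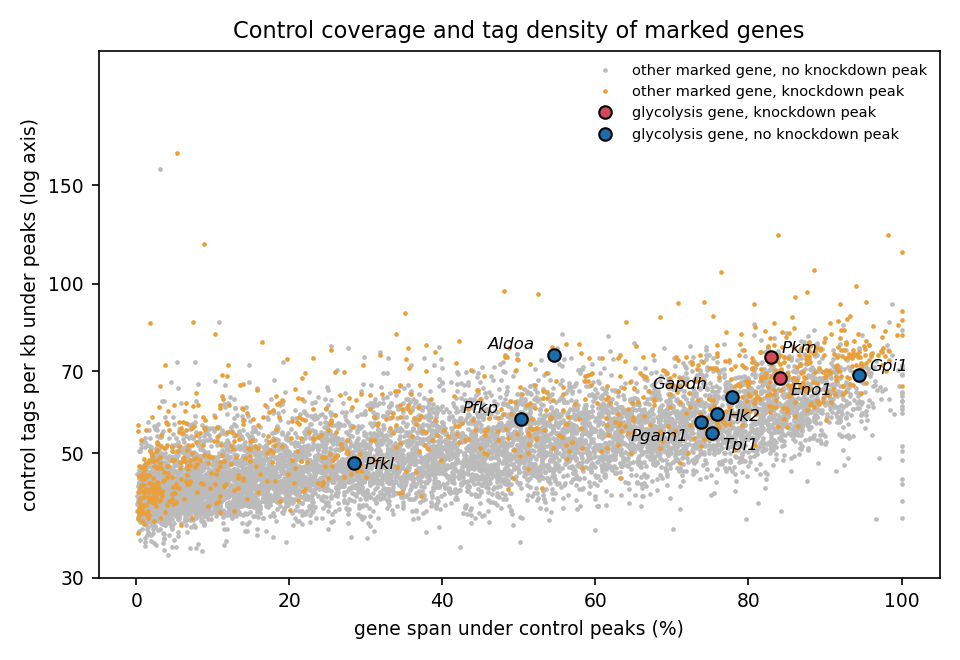
Control covered share of the gene span (horizontal axis, percent) against control tags per kb under peaks (vertical axis, logarithmic) for all protein-coding genes with a control peak. Small points are other genes, orange with and grey without a knockdown peak. Large red points are Eno1 (67.9) and Pkm (74.1), and large blue points the 8 glycolysis genes without a knockdown peak. Among the blue points, Aldoa (74.6) lies near the height of Pkm and Gpi1 (68.9) near that of Eno1.

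For Eno1 and Pkm the remaining stretches can be set beside the control, with tags per kb also scaled to 1000000 kept tags of each list, written as scaled tags per kb. Eno1 had 1.87 (1.74 to 2.02) scaled tags per kb under its control peaks and 1.31 (1.01 to 1.67) under its knockdown peak. Pkm had 2.04 (1.94 to 2.15) and 1.28 (1.12 to 1.46). These densities were taken over different stretches, 10237 bp in control and 1636 bp in knockdown for Eno1 and 18906 and 6284 bp for Pkm, so they do not compare the same bases. Both knockdown values were near the median of all knockdown peaks, 1.25 scaled tags per kb. The lowest of all knockdown peaks had 1.02, and weaker signal is not listed, so densities under called peaks have a floor. The knockdown length under peaks was 16.0% of the control length for Eno1 and 33.2% for Pkm. Per kb of the whole gene the peak tags came to 1.58 against 0.176 in Eno1 and 1.70 against 0.353 in Pkm, in scaled tags per kb. Tags outside peaks are not in these values, and scaling to kept tags takes no account of a change in the mark over the whole genome.

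An absent knockdown peak is not a zero. The caller required a p-value under 1e-05, and 95% of knockdown peaks had at least 1.12 scaled tags per kb. The 8 genes without a knockdown peak had control densities from 1.33 (Pfkl) to 2.06 (Aldoa), so that Pfkl lay nearest to this level in control. Signal below the caller's threshold is not in the list, and its amount over these 8 genes is unknown.

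Named copies of these genes, which could share reads with them, carried no peaks. By symbol or synonym the gene table names 11 copies of Aldoa, Gapdh, Pgam1 and Eno1, among them Gapdh-ps15, Aldoart1 and Eno1b. None of the 11 touched a peak in either list. Copies that the gene table does not name in this way were not counted. The share of all such copies in the genome that touch a peak is not given here. How reads with several matches were handled was not given in the sources used here, and its part in the values of the 10 genes was not tested.

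The genes most like Eno1 and Pkm were taken by the distance between their covered shares in the 2 lists, among protein-coding genes with a length within 1.5 times. For Eno1 (4039 candidates) these were Ctsd, a lysosomal protease gene, with 84.1% in control and 13.2% in knockdown, Nup62, a nuclear pore gene, with 84.9% and 12.8%, and Bag6, a chaperone gene, with 82.5% and 14.0%. For Pkm (4540 candidates) they were Tln1, which encodes talin of cell adhesions, with 80.7% and 26.3%, Txnl4a, a spliceosome gene, with 84.9% and 23.4%, and Zfp599, a zinc finger gene, with 83.3% and 22.9%.

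The rest of the pathway was taken from a list. For the counts of this and the following lists, the shares over all protein-coding genes serve as background. These were 41.2% with a control peak midpoint and 4.95% with a knockdown peak midpoint. Of the genes with a control peak 10.6% also had a knockdown peak. Of 11 further glycolysis and lactate genes 8 had a control peak, with a median covered share of 37.0%, and 1 had a knockdown peak. Ldhb (90.0%) and Aldoc (76.9%), which encode a lactate dehydrogenase subunit and aldolase C, were the most covered. Ldha, which encodes the lactate dehydrogenase subunit that favours lactate formation, was the gene with a knockdown peak, at 62.9% in control and 12.8% in knockdown. Pgk1, the phosphoglycerate kinase gene, whose enzyme acts between those of Gapdh and Pgam1, had no base under a peak in either list. It is named here after its values were seen. Of 12 isozymes known from liver, muscle or germ cells 2 had a control peak midpoint and 9 touched none. Gapdhs (18.5%) and Eno3 (11.0%) were the most covered.

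Carriers bring glucose into the cell and lactate out of it. Of 8 glucose and lactate carrier genes 6 had a control peak, with a median of 27.3%. Slc2a4 (53.8%) and Slc16a3 (38.0%) were the most covered, and Slc2a1, the widely used glucose transporter gene, had 21.2% in control and 5.13% in knockdown. Of 5 genes that set the level of fructose 2,6-bisphosphate, an activator of phosphofructokinase, 3 had a control peak, led by Tigar (40.5%) and Pfkfb2 (33.2%), and 0 a knockdown peak. Of 13 genes around the hypoxia-inducible factors and Myc 12 had a control peak, with a median of 23.8%. Max (90.1%), the partner of Myc, and Mycn (79.6%) led, and Epas1 had a peak in both lists (23.8% and 2.48%).

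Neighbouring pathways of carbon metabolism use the products of these steps. All 20 citric acid cycle genes had a control peak, with a median covered share of 49.7%, and 2 had a knockdown peak. Idh3b (83.6%) and Idh3a (81.5%), subunits of isocitrate dehydrogenase, were the most covered. Mdh2, a malate dehydrogenase gene, had 80.4% and 19.2%, and the citrate synthase gene Cs 63.2% and 10.4%. Of 10 pentose phosphate genes 7 had a control peak, with a median of 30.8%. Tkt, the transketolase gene, had 83.6% and 4.92%, and Rpe 80.5% and 0. Of 14 genes for pyruvate import and oxidation 6 (42.9%) had a control peak, near the share over all protein-coding genes, and none a knockdown peak. Pdhb (78.9%) and Pdk4 (64.3%) were the most covered of them. Of 8 gluconeogenesis genes 2 had a control peak midpoint. Pck2 (89.0%) and G6pc3 (55.6%) were the most covered, and Fbp2 had a knockdown peak over 5.56% of its span and no control peak.

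**Figure D5:**
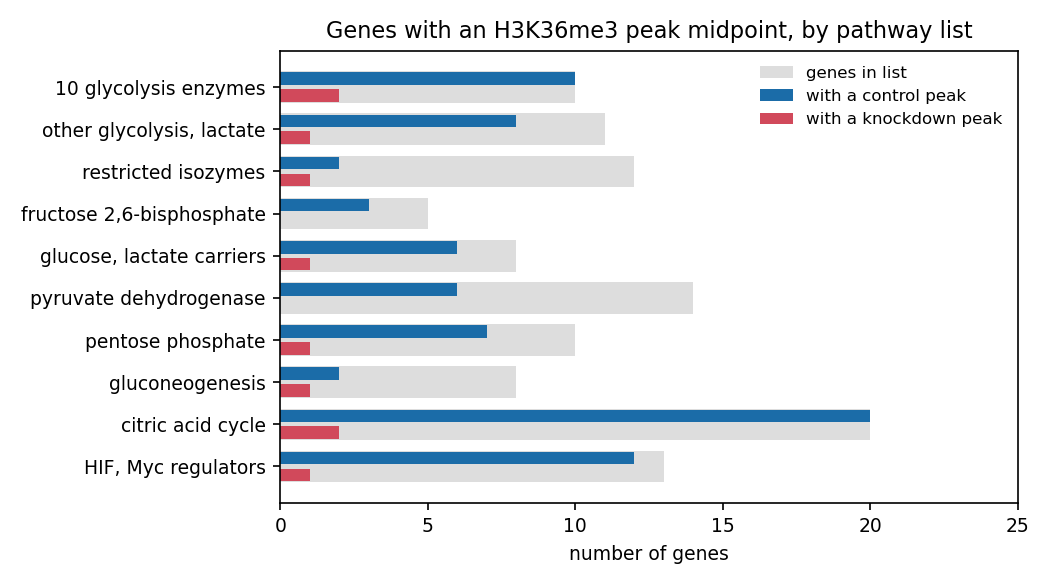
Number of genes (horizontal axis) in the 10 glycolysis enzymes and in 9 other lists of carbon metabolism: all genes of a list in grey, those with a control peak midpoint in blue and those with a knockdown peak midpoint in red. The blue bar is as long as the grey one for the 10 glycolysis enzymes and for the citric acid cycle, and no red bar exceeds 2 genes.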

How the data were processed

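H3K36me3 ChIP and input libraries of control and Setd2 knockdown cells were used through the peak tables deposited by the authors, 1 per condition. The submitters' processing notes name Bowtie 1.1.2, FastQC 0.11.5 and the build mm10. Per the file headers, MACS 1.4.2 called peaks on merged replicates against merged input at a p cutoff of 1e-05. Per the file headers the tables give, for each peak, the raw count of tags, the caller's score, a fold enrichment that is a ratio to background, and an FDR in percent.

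Gene spans came from a RefSeq table (GRCm38.p6), and strands and start sites from RefSeq promoter windows of 300 bases. Exons and introns were not used here. Covered share, tags per kb and bins were computed with Python 3.11.15, pandas 2.3.3 and scipy 1.17.1, and the interval arithmetic was tested on simulated data. Intervals of tags are Poisson, computed on the shared-out and rounded counts, and those of shares exact Clopper-Pearson, at 95% and for counting error only.

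The 10 genes and all lists were chosen with earlier results of these data known. All 10 are named, and from each other list the 2 genes most covered in control and every gene with a knockdown peak, except 1 that is not reported here. Alternatives were peak thresholds (FDR of 5% or 1%, score of 100), equal list lengths, spans extended by 1 kb, other rules for a peak in a gene, and other tag scalings.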

Additional observations from a re-analysis of the deposited data

How the results depend on the processing

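No paired analysis was possible because the authors called peaks on merged replicates, and for the same reason no replicate could be left out. With peaks of an FDR of 5% or less no value of the 10 genes changed. With an FDR of 1% or less 10 genes had a control peak, but 0 had a knockdown peak and 0 both, since the Eno1 and Pkm peaks had FDR values of 1.07%, 1.88% and 4.35%. With a caller score of 100 or more, 1 gene (Pkm) had a knockdown peak and 1 both, and the median control covered share was 73.1%. With only the 3040 top-scoring control peaks (score of 545.58 or more), 4 genes (Hk2, Pfkp, Aldoa and Pkm) had a control peak, 1 had both, and the median control covered share was 2.16%; fewer control peaks enter here by construction. With spans extended by 1 kb that median was 71.5%. Counting any overlap of 1 bp, or a covered share of at least 10%, left the counts at 10 and 2. For tags per kb of gene, no alternative moved a gene by more than 1.5 times. Background shares under these alternatives are not given here. The depth of 29416169 kept tags limits what the knockdown list can show.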

Other observations

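Caller score, fold and density ranked the control peaks of these genes differently. The 28066 bp peak of Gpi1 had a fold enrichment of 7.78 in the authors' table and a score of 120.95, while the 4704 bp peak of Aldoa had 8.5 and 917.18, and the 18906 bp peak of Pkm had 7.78 and 962.3. In the knockdown list the FDR given by the caller was higher for the higher-scoring of the 3 peaks, with 1.07% at a score of 62.09 (Eno1), 1.88% at 102.66 and 4.35% at 261.72 (Pkm). The cause was not tested.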
